A study of Mus musculus with 32 samples.

Results

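The early response of blood stem and progenitor cells to loss of an activated Janus kinase was measured in LSK cells, the marrow fraction without lineage markers but with the surface proteins Sca1 and Kit, which holds the stem cells. The comparison set 3 libraries collected on day 3 of tamoxifen against 4 vehicle libraries. The 7 libraries were taken by their labels (LSK, batch A, tamoxifen day 3 or vehicle) from the 32 in the series, and no gene level entered that choice. The labels give all samples the genotype Jak2v617f, a mutation that leaves the kinase active without cytokine. Per the labels' protocols, the mutant allele was switched on outside the body with Dre recombinase mRNA, the cells were then given to recipients that had been lethally irradiated, and tamoxifen later activated Cre, which deletes the mutant allele. Vehicle animals received no tamoxifen and are labelled day 0, and no group of the labels received tamoxifen without the deletable allele, so deletion, tamoxifen and Cre, and time cannot be told apart in this comparison. The labels name neither the promoter that drives Cre nor the share of marrow that still came from the host. The other groups used here, for contrast only, were LSK cells on day 7 of tamoxifen (4 libraries) and megakaryocyte-erythroid progenitors (MEP) of batch A on day 3 of tamoxifen (4 libraries) and under vehicle (3 libraries).

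JAK2 is bound to receptors for erythropoietin and other cytokines, and once active it phosphorylates STAT5, which enters the nucleus and turns on target genes such as Cish and the Socs genes. Their products bind the receptors or the kinase and dampen the signal. In stem and progenitor cells the same axis feeds cell survival, erythroid and platelet output, and in mice and humans the V617F form gives myeloproliferative disease.

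The day 3 libraries held about 12423200 to 21289000 counts and the vehicle libraries about 13392800 to 28838600. The deeper libraries measure low genes with less counting error. Within each group every pair of libraries differed by more than counting noise (chi-square per degree of freedom 21.7 to 127), so each library was counted as 1 replicate. The labels number the samples but do not say which came from separate litters or sorting days, so the p-values measure the spread between these samples. Genes of the sort were present in the counts. Kit stood at 570 to 1047 CPM on day 3 and 499 to 1436 CPM under vehicle. It does not set LSK cells apart from MEP cells, where its means were 916 and 472 CPM. Ly6a, the gene of Sca1, was at 16.2 to 53.9 CPM on day 3 and 64.5 to 192 CPM under vehicle. In MEP cells its means were 0.477 and 0.0174 CPM. Cd34 was at 223 to 715 CPM on day 3 and 323 to 1422 CPM under vehicle. The stem cell gene Hlf was at 21.4 to 85.1 CPM on day 3 and 40.4 to 129 CPM under vehicle. CPM (counts-per-million) values were scaled by TMM factors. Of lineage genes, the T cell genes Cd3e and Trac stayed at or under 5.84 CPM in all 7 libraries. The 17 T and NK cell genes together summed to 362 to 570 CPM on day 3 and 369 to 637 CPM under vehicle. Macrophage genes such as C1qa, the eosinophil genes Prg2 and Epx, and immunoglobulin genes were present at levels that differed widely between libraries. They are given beside the results they touch. Being bulk samples, the libraries cannot tell fewer cells of a type from less RNA per cell.

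Jak2 itself was at 19.1, 17.1 and 20.3 CPM in the 3 day 3 libraries, against 19.5, 25.4, 21.1 and 34.3 CPM in vehicle libraries 1 to 4. The groups overlapped, with a log2 fold change of -0.41 ± 0.26 (SE), a 95% interval from -0.92 to 0.09 and an adjusted p of 1. Counts per gene do not separate the mutant from the normal allele, so this level does not check the deletion.

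Few genes passed the test on day 3, and the ones that did were an effector protease, a lymphoid receptor, an antibody segment and an unannotated transcript. Gzmb (granzyme B, a serine protease of cytotoxic lymphocytes that mast cells and their progenitors also make) rose, and P2ry10 (a G protein-coupled receptor of lymphoid cells), the antibody light chain segment Iglv1 and the unnamed transcript Gm16879 fell. Of 25114 genes tested with edgeR, 4 (0.0159%) were called at an adjusted p of 0.05, 1 higher (0.00398%) and 3 lower (0.0119%). Each of the 4 was lost when any 1 of the 3 day 3 libraries was left out, and DESeq2 on the same libraries called 87 genes, 21 higher and 66 lower. Without vehicle library 3 edgeR called 101 genes, 78 higher and 23 lower, and without vehicle library 1 it called 14. Among 10194 genes with a mean of at least 10 CPM, edgeR called 0 and DESeq2 78, and 645 (6.33%) had an unadjusted p under 0.05 in edgeR. Over all genes tested, 485 (1.93%) were higher and 551 (2.19%) lower at an unadjusted p under 0.05, which together is 4.13% and below the nominal rate of that threshold. The 3 day 3 libraries all lay above the 4 vehicle libraries for 487 genes (1.94%) and all below them for 468 (1.86%). These shares are the background for the counts of listed genes below, and unless a gene is said to have passed, its adjusted p was above 0.05.

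Gzmb (mm10, chr14:56258838-56262260, minus strand) was at 25.5, 46.7 and 51.0 CPM on day 3, against 3.66, 6.02, 7.03 and 10.4 CPM under vehicle. The lowest day 3 library was above the highest vehicle library. Its log2 fold change was 2.60 ± 0.39 (SE, adjusted p = 0.0379 in edgeR's quasi-likelihood test), and its mean was 41.1 ± 13.6 CPM (SD, n = 3) on day 3 and 6.79 ± 2.82 CPM (SD, n = 4) under vehicle. The call was also lost without vehicle library 1 or 2 and in a fit of the 7 compared libraries alone, where the adjusted p was 0.0802, in a range of 0.069 to 0.347 over the alternatives that lost it. Gzmb was a member of the mast cell, basophil and eosinophil list, in which 4 of 18 tested members were higher and 4 lower at an unadjusted p under 0.05 (median log2 fold change 0.50, against 0.00 over all genes tested). Without day 3 library 2 that list had 1 higher member and a median of -0.32, and without vehicle library 1 or 3 or day 3 library 1 or 3 it had 1 or 2 lower members. The mast cell genes Cpa3 and Ms4a2 were highest in day 3 library 2, at 258 and 75.2 CPM. The eosinophil granule genes split the vehicle group: Prg2 was at 5.02, 412 and 2.06 CPM on day 3, against 4584, 74.5, 3135 and 29.9 CPM under vehicle, and Epx followed the same libraries. The part of these cells in the Gzmb difference was not tested.

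P2ry10 (chrX:107088492-107104974, plus strand) was at 0.984, 0.493 and 1.03 CPM on day 3, against 4.84, 7.25, 9.39 and 5.76 CPM under vehicle. All day 3 libraries were below all vehicle libraries, and the log2 fold change was -3.03 ± 0.43 (adjusted p = 0.0277). Its day 7 libraries, which share the vehicle group, were at 3.68, 5.63, 6.21 and 5.56 CPM. Day 7 minus day 3, which uses no vehicle library, gave 2.66 ± 0.42 with an adjusted p of 0.0757 and did not pass.

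**Figure D1:**
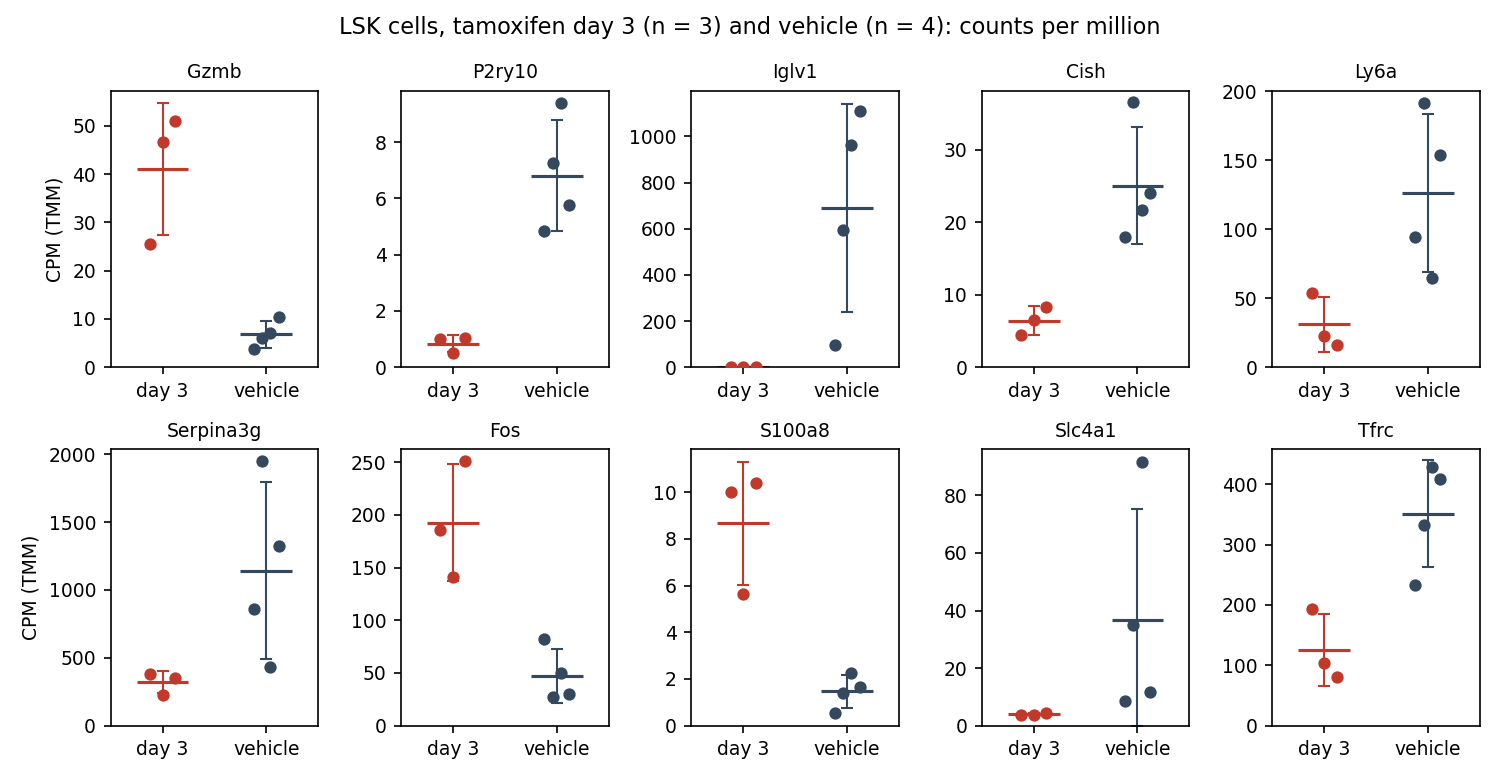
TMM-scaled CPM (vertical axes, from 0) of 10 genes in LSK cells on tamoxifen day 3 (red, 3 libraries) and under vehicle (dark, 4 libraries); each point is a library, the line is the mean and the bar 1 SD. The groups do not overlap for any of the 10 genes; Gzmb, P2ry10 and Iglv1 passed the test across all genes and the others did not.

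The largest differences among the called genes were in Iglv1, an antibody segment of the kind that plasma cells and B cells transcribe, and in Gm16879, which has no entry in the annotation used. Iglv1 was at 1.71, 0.937 and 1.44 CPM on day 3, against 94.3, 594, 960 and 1109 CPM under vehicle (log2 fold change -8.98 ± 1.06, adjusted p = 0.00899). Gm16879 was at 0.363, 0.345 and 0.275 CPM on day 3, against 11.7, 25.8, 94.0 and 232 CPM under vehicle (-8.07 ± 1.01, adjusted p = 0.0102). Of 92 immunoglobulin genes tested, 1 was called lower, 12 lay wholly below and 2 wholly above the vehicle libraries, and the median log2 fold change was -1.57. Summed, immunoglobulin genes took 0.0182%, 0.0540% and 0.0185% of counts on day 3 and 0.108%, 0.169%, 0.847% and 2.30% under vehicle. Vehicle libraries 3 and 4 carried most of that RNA, and all 4 were above every day 3 library. Plasma cell genes, a list chosen after values were seen, moved with them: 7 of 17 were lower and 0 higher at an unadjusted p under 0.05, and the joining chain gene Igj was at 5.80, 29.2 and 4.67 CPM on day 3, against 104, 324, 658 and 3881 CPM under vehicle. Without vehicle library 4, 3 of them were lower, and without day 3 library 1 or 3, 4. The count of calls without immunoglobulin genes was 3. Near-identical segments can hold each other's reads, so the level of a single segment is uncertain.

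Genes listed as STAT5 targets were mostly at lower levels on day 3, although none of the 25 tested members of the list passed the test. The list was drawn up with earlier results of these data known, so its counts and median are a description and not a test. At an unadjusted p under 0.05, 10 were lower (Cish, Socs2, Socs3, Pim2, Id1, Ccnd2, Podxl, Il2ra, Serpina3g and Serpina3f) and 1 higher (Pim3), and 7 lay wholly below the vehicle libraries, against 1.86% of all genes. The median log2 fold change of the list was -0.59. It ran from -0.69 without vehicle library 4 to -0.41 without vehicle library 2. Under limma voom it was -0.29, with RLE factors -0.71, and against the vehicle libraries without an r suffix in their label -0.32. Leaving out each of the 7 libraries in turn left 8 to 11 members lower, and DESeq2 called 4 of them lower, Cish, Id1, Serpina3g and Serpina3f.

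Cish (chr9:107296026-107302784, plus strand), which encodes a feedback inhibitor of cytokine receptors and is a standard readout of STAT5, was at 4.40, 6.51 and 8.31 CPM on day 3, against 17.9, 36.5, 21.6 and 24.04 CPM under vehicle. The highest day 3 library was below the lowest vehicle library. The log2 fold change was -1.97 ± 0.40 (95% interval -2.75 to -1.19), with an adjusted p of 0.248 over all genes. Socs2, a related feedback inhibitor, was at 46.6, 26.3 and 34.7 CPM on day 3, against 86.6, 72.5, 58.8 and 76.3 CPM under vehicle (-1.04 ± 0.30, adjusted p = 0.543). Id1, an inhibitor of basic helix-loop-helix factors, was at 1.86, 2.17 and 0.893 CPM on day 3, against 8.38, 7.62, 2.86 and 8.37 CPM under vehicle (-2.04 ± 0.54, adjusted p = 0.490). Both had all day 3 libraries below all vehicle libraries. The survival kinase gene Pim2 was at 28.6, 23.2 and 26.9 CPM on day 3, against 74.6, 450, 72.5 and 188 CPM under vehicle, so the size of its difference rested on vehicle libraries 2 and 4. Podxl, a sialomucin of the cell surface, was at 1.97, 2.76 and 3.50 CPM on day 3, against 6.70, 6.98, 5.35 and 9.17 CPM under vehicle (-1.36 ± 0.42, adjusted p = 0.679).

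Other targets overlapped between the groups. Oncostatin M (Osm), a cytokine that STAT5 induces, was at 19.3 to 32.6 CPM on day 3 and 24.4 to 43.5 CPM under vehicle, with a log2 fold change of -0.21 ± 0.27 that turned to 0.13 under limma voom. Pim1 was at 4.19 to 6.66 CPM on day 3 and 2.80 to 16.2 CPM under vehicle. The anti-apoptotic gene Bcl2l1 was at 48.3 to 71.8 CPM on day 3 and 59.9 to 94.5 CPM under vehicle, and Myc at 410 to 716 CPM on day 3 and 336 to 1424 CPM under vehicle. Socs3 ran from 0.932 to 3.85 CPM on day 3 and from 0.310 to 56.1 CPM under vehicle, where library 2 alone was above 6.34 CPM. For Myc, Pim1 and Socs3 the direction also turned under at least 1 alternative.

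The pair Serpina3g and Serpina3f, neighbouring genes for serine protease inhibitors that cytokines induce in mouse blood cells, were on the STAT5 list and each held a motif match. Serpina3g was at 382, 229 and 354 CPM on day 3, against 860, 1952, 436 and 1322 CPM under vehicle (-1.83 ± 0.41, adjusted p = 0.276). Serpina3f was at 21.2, 15.8 and 18.1 CPM on day 3, against 40.8, 75.2, 28.9 and 148 CPM under vehicle (-1.99 ± 0.46, adjusted p = 0.291). For both, vehicle library 3 was the lowest of its group and still above every day 3 library. The copies are closely related and may share reads. The STAT core motif TTCNNNGAA, which is its own reverse complement, was searched in the 250 bases before each gene's start (RefSeq, GRCm38.p6). It was in 7.02% of 32851 windows and in 8.13% of 27025 genes, and in 5 of 17 matched genes of the STAT5 list (29.4%), namely Socs3, Bcl6, Gfi1b, Serpina3g and Serpina3f. Bcl6 and Gfi1b had log2 fold changes of 0.14 and 0.36. Because the members were chosen with earlier results known, the share of the list is a description. The windows of the Serpina3 pair are shown because both genes hold a match, in capitals, which begins 33 bases before the start in Serpina3g (chr12:104235897-104236146, plus strand) and 121 bases before it in Serpina3f (chr12:104214294-104214543, plus strand).
Serpina3g: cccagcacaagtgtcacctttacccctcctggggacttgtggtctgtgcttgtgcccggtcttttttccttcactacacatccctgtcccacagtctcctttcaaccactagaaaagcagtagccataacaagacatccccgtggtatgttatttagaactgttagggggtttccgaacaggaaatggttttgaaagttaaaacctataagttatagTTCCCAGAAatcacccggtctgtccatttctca
Serpina3f: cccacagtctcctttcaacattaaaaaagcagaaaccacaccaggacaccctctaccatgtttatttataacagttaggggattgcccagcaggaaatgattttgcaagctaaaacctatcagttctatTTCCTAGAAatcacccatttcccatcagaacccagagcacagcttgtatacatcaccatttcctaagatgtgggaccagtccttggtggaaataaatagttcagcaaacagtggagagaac
The Cish window (chr9:107296409-107296658, plus strand) held no match within these 250 bases. It lies before the RefSeq start but inside the gene span given above, so the bases before that span were not searched. A match is a description of letters and not a measured binding site.

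Upstream of these targets, the kinases, STATs and cytokine receptors had a median log2 fold change near that of all genes: 0 of 34 passed, 2 were lower and 0 higher at an unadjusted p under 0.05, and the median was -0.09. Stat5a and Stat5b had log2 fold changes of 0.08 and 0.21, Jak1 -0.03 and Tyk2 0.00. The 2 lower ones were Stat4, at 59.2 to 80.0 CPM on day 3 and 76.2 to 200 CPM under vehicle, and Il7r, the interleukin 7 receptor of lymphoid progenitors, at 3.21, 3.55 and 4.81 CPM on day 3, against 10.1, 3.56, 29.5 and 40.7 CPM under vehicle.

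Genes of stem cells and of the Sca1 gate had lower values as well. Of 40 tested stem cell genes 12 were lower and 0 higher at an unadjusted p under 0.05, and 9 lay wholly below the vehicle libraries, with a list median of -0.57. None passed in edgeR. Ly6a, which encodes Sca1, the surface protein used in the sort, was at 53.9, 22.9 and 16.2 CPM on day 3, against 94.2, 192, 64.5 and 154 CPM under vehicle (-2.02 ± 0.45, adjusted p = 0.253), and DESeq2 called it lower. Kit, the other sort marker, had a log2 fold change of 0.02 with a 95% interval of -0.70 to 0.74, and its sign turned under several alternatives. Procr, the protein C receptor that marks long-term stem cells, was at 12.8, 6.85 and 6.05 CPM on day 3, against 28.4, 50.5, 13.1 and 14.2 CPM under vehicle (-1.63 ± 0.53, adjusted p = 0.758). Gimap6, a small GTPase of the immune-associated family, was at 111, 78.3 and 70.6 CPM on day 3, against 119, 429, 131 and 285 CPM under vehicle. The transcription factor gene Mecom was at 47.3 to 81.4 CPM on day 3 and 85.4 to 152 CPM under vehicle, and Meis1 at 208 to 226 CPM on day 3 and 250 to 648 CPM under vehicle, both without overlap. Vehicle library 2, the deepest, was the highest of all 7 for each gene named here, and without it, or without day 3 library 2, 5 stem cell genes were lower at an unadjusted p under 0.05. The list median without vehicle library 2 was -0.26.

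Genes of the lymphoid side of the progenitor pool had lower values too. Of 22 lymphoid and B lineage genes 6 were lower and 0 higher at an unadjusted p under 0.05 and 3 lay wholly below, with a median of -0.40. The median was -0.11 without vehicle library 2, -0.63 without vehicle library 3 and 0.0089 against the vehicle libraries without an r suffix in their label, while 5 or 6 members were lower whichever library was left out. None passed in edgeR, and DESeq2 called 3, Il7r, Ighm and Lax1. Lax1, an adaptor of lymphocyte receptors, was at 11.5, 12.1 and 8.79 CPM on day 3, against 18.9, 71.9, 22.3 and 74.4 CPM under vehicle (-2.12 ± 0.45, adjusted p = 0.253). Ighm, the antibody mu heavy chain gene, was at 102, 70.0 and 10.2 CPM on day 3, against 295, 346, 1333 and 572 CPM under vehicle (-3.39 ± 0.69, adjusted p = 0.248). The B lineage genes Ebf1 and Cd79b had log2 fold changes of 0.45 and 0.01, and Il7r had one of -2.44 ± 0.63 with overlap. The summed level of the list was 512 to 829 CPM on day 3 and 903 to 2077 CPM under vehicle. With 3 against 4 libraries there are only 35 arrangements, and the exact two-sided permutation test of this sum gave a p of 0.0571. No p is given for the other sums. The immunoglobulin and plasma cell values above moved with this list, and their part in it was not tested.

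MHC class II genes, which present antigen and are on in B cells, dendritic cells and part of the stem and progenitor pool, had fold changes below 0 in all 11 cases. Of 11 tested, 9 were lower and 0 higher at an unadjusted p under 0.05, 5 lay wholly below the vehicle libraries, and the median was -0.96. No member passed in edgeR, and DESeq2 called 2, H2-Eb1 and H2-Aa. H2-Eb1 was at 57.5, 27.0 and 13.0 CPM on day 3, against 211, 111, 448 and 65.02 CPM under vehicle (-2.68 ± 0.60, adjusted p = 0.276). Cd74, the invariant chain, was at 229, 89.6 and 24.1 CPM on day 3, against 642, 258, 2119 and 391 CPM under vehicle (-2.90 ± 0.75, adjusted p = 0.449). Ciita, the transactivator that switches the family on, was at 21.3, 19.6 and 19.0 CPM on day 3, against 45.1, 24.3, 60.6 and 37.6 CPM under vehicle (-1.07 ± 0.31, adjusted p = 0.543). Vehicle library 3 was the highest and day 3 library 3 the lowest for all 3 genes. Leaving out each library in turn left 7 to 9 members lower. Day 7 libraries were higher than day 3 libraries for H2-Eb1, at 138, 140, 224 and 127 CPM, with a difference of 2.27 ± 0.59 that did not pass (adjusted p = 0.195).

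**Figure D2:**
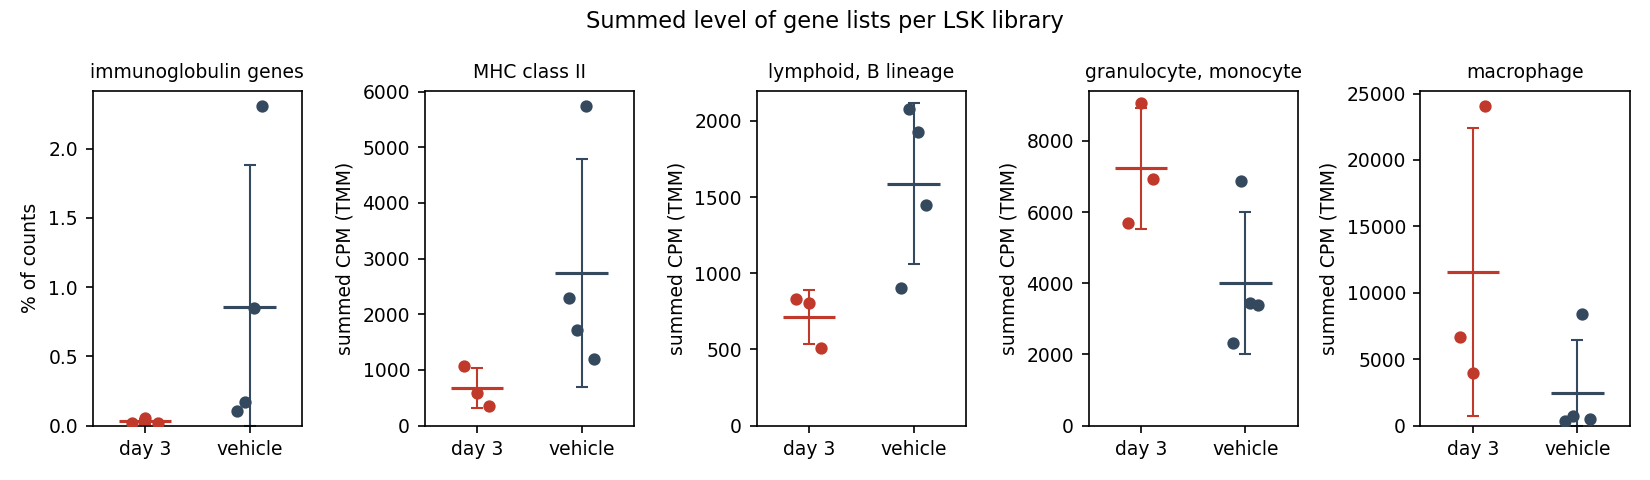
Share of counts in immunoglobulin genes (percent) and summed TMM-scaled CPM of 4 gene lists (vertical axes, from 0) in LSK libraries of tamoxifen day 3 (red, 3 points) and vehicle (dark, 4 points), with the mean and 1 SD. The day 3 libraries lie below all vehicle libraries in the first 3 panels, and the groups overlap in the granulocyte and monocyte panel and in the macrophage panel, where day 3 reached 24027 CPM and vehicle 8384 CPM.

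Genes of the granulocyte and monocyte lineages were at higher levels on day 3. Of 26 tested, 12 were higher and 0 lower at an unadjusted p under 0.05, 7 lay wholly above the vehicle libraries, against 1.94% of all genes, and the median was 0.81. None passed in edgeR, and DESeq2 called S100a8. S100a8, a calcium-binding protein of neutrophils and monocytes, was at 9.998, 5.62 and 10.4 CPM on day 3, against 0.559, 1.41, 2.24 and 1.67 CPM under vehicle (2.55 ± 0.44, adjusted p = 0.125). S100a9, its partner, was at 7.87, 5.62 and 6.11 CPM on day 3, against 0.434, 0.958, 4.54 and 0.603 CPM under vehicle (2.002 ± 0.63, adjusted p = 0.727). Myeloperoxidase (Mpo), a gene of early granulocyte-monocyte progenitors, was at 2474, 5456 and 2505 CPM on day 3, against 833, 2851, 941 and 1555 CPM under vehicle, with overlap. Igsf6, an immunoglobulin superfamily member of the list, had a log2 fold change of 1.47 ± 0.33 (adjusted p = 0.276) with no overlap. F13a1, the coagulation factor XIII A chain of monocytes and megakaryocytes and outside the list, was at 138, 166 and 166 CPM on day 3, against 14.6, 68.3, 28.7 and 45.6 CPM under vehicle (1.99 ± 0.43, adjusted p = 0.253). Without vehicle library 1 the count of higher members was 5, and without day 3 library 3 it was 6.

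Macrophage genes differed widely between libraries, and the counts of their list depended on which library was left out. Of 17 tested, 7 were higher at an unadjusted p under 0.05, 0 lay wholly above the vehicle libraries, and the median was 1.94. Hmox1, heme oxygenase of red cell-eating macrophages, was at 837, 448 and 3288 CPM on day 3, against 23.96, 27.4, 1040 and 41.7 CPM under vehicle. Slc40a1, the iron exporter ferroportin, was at 848, 530 and 3274 CPM on day 3, against 27.9, 35.1, 862 and 38.6 CPM under vehicle, and Vcam1 at 976, 522 and 5015 CPM on day 3, against 77.9, 30.4, 1762 and 38.8 CPM under vehicle. Day 3 library 3 and vehicle library 3 were the high ones in their groups. For each of these genes every day 3 library was above vehicle libraries 1, 2 and 4. Without vehicle library 3 the list had 16 higher members and a median of 4.74, and 13 of the 17 passed the test, Cd5l, Slc40a1 and Hmox1 among them. Without day 3 library 3 it had 0 and a median of 0.79, without day 3 library 2 it had 12, without vehicle library 1 it had 2, and without vehicle library 2 or 4 it had 3. Ftl1, the ferritin light chain, was at 1930, 1527 and 5616 CPM on day 3, against 549, 994, 1320 and 660 CPM under vehicle (1.78 ± 0.43, adjusted p = 0.368), and Fcgr3 and Cd68 on the granulocyte and monocyte list were also highest in day 3 library 3. The part of macrophage RNA in these differences was not tested.

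**Figure D3:**
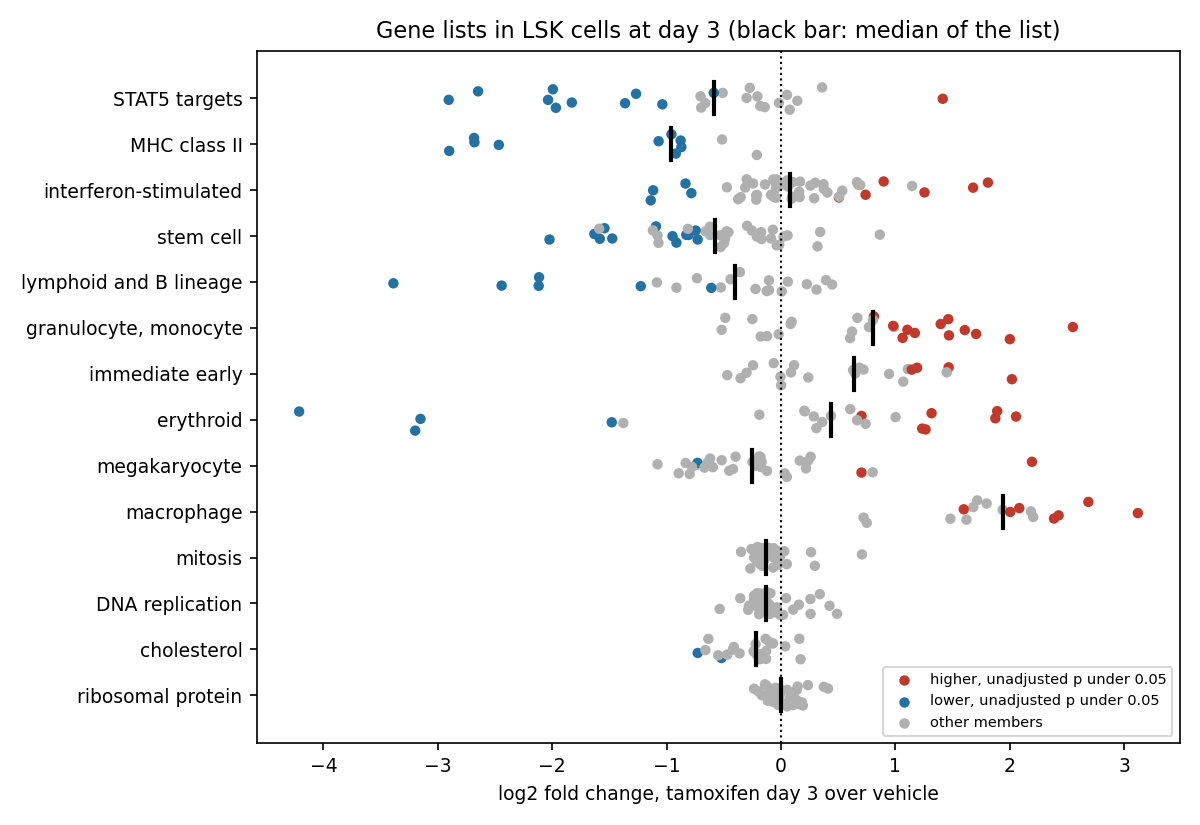
Fitted log2 fold changes, tamoxifen day 3 over vehicle (horizontal axis), of the tested members of 14 gene lists in LSK cells; each point is a gene, coloured where the unadjusted p was under 0.05, and the black bar is the list's median. The medians of MHC class II, STAT5 target and stem cell genes lie left of the dotted median of all genes, those of granulocyte, immediate early and macrophage genes lie right of it, and those of mitosis, replication and ribosomal protein genes lie close to it.

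Erythroid genes went both ways. Of 23 tested, 7 were higher and 4 lower at an unadjusted p under 0.05, with 6 wholly above, 2 wholly below and a median of 0.44. Without vehicle library 1 or day 3 library 1, 4 were higher, and without vehicle library 3 or day 3 library 2 or 3, 2 were lower. Car1, the carbonic anhydrase of early erythroid progenitors, was at 2408, 1372 and 1022 CPM on day 3, against 129, 360, 376 and 675 CPM under vehicle (2.06 ± 0.48, adjusted p = 0.306). The water channel gene Aqp1 was at 302, 193 and 169 CPM on day 3, against 45.5, 95.6, 85.2 and 142 CPM under vehicle (1.26 ± 0.33, adjusted p = 0.449). Gata1, the master regulator of red cell and platelet precursors, was at 352, 204 and 174 CPM on day 3, against 131, 155, 144 and 168 CPM under vehicle (0.70 ± 0.25, adjusted p = 0.882). Mfsd2b, a lipid exporter of red cells and platelets outside the list, was at 493, 392.1 and 346 CPM on day 3, against 133, 232, 174 and 240 CPM under vehicle (1.08 ± 0.26, adjusted p = 0.381). Day 3 library 1 was the highest for all 4 genes, and no groups overlapped.

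The lower members were the transferrin receptor and genes of late red cells. Tfrc, which takes up iron, was at 194, 103 and 80.8 CPM on day 3, against 233, 332, 429 and 409 CPM under vehicle (-1.48 ± 0.37, adjusted p = 0.393). Slc4a1, the anion exchanger of the red cell membrane, was at 3.73, 3.75 and 4.53 CPM on day 3, against 8.69, 35.1, 91.5 and 11.7 CPM under vehicle (-3.20 ± 0.65, adjusted p = 0.248). The globin genes Hba-a1 and Hba-a2 overlapped, with vehicle library 3 at 655 and 186 CPM and every other library at or under 37.1 CPM. DESeq2 called Car1 higher and Tfrc and Slc4a1 lower.

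Genes of the immediate early response, which answer growth factors and cell stress within minutes, were at higher levels. Of 22 tested, 4 were higher and 0 lower at an unadjusted p under 0.05, 3 lay wholly above and the median was 0.64. The median was 0.23 without day 3 library 3 and 0.38 without vehicle library 2. Fos was at 185, 141 and 251 CPM on day 3, against 82.5, 27.0, 50.1 and 30.2 CPM under vehicle (2.02 ± 0.36, adjusted p = 0.161), and DESeq2 called it. Egr1 was at 5.54, 10.9 and 12.0 CPM on day 3, against 4.53, 2.01, 3.86 and 3.35 CPM under vehicle (1.47 ± 0.42, adjusted p = 0.543). Jun was at 13.2, 22.2 and 13.4 CPM on day 3, against 9.99, 4.20, 9.76 and 4.55 CPM under vehicle (1.19 ± 0.35, adjusted p = 0.624). Their groups did not overlap.

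Interferon-stimulated genes showed no shared direction. Of 49 tested, 6 were higher and 4 lower at an unadjusted p under 0.05, 2 lay wholly above and 1 wholly below, and the median was 0.08. Under RLE factors the median was -0.06, while that of all genes moved from 0.00 to -0.09. The higher ones were genes of the antiviral response, Irf7, Ifit3, Oasl1, Cmpk2, Dhx58 and Ifi204, and the lower ones were guanylate-binding and immunity-related GTPases that interferon gamma induces, Igtp, Irgm2, Gbp2 and Iigp1. Ifit3 was at 29.0, 20.8 and 39.99 CPM on day 3, against 7.26, 3.33, 21.8 and 1.81 CPM under vehicle (1.81 ± 0.59, adjusted p = 0.756). Vehicle library 3 was the exception, above the lowest day 3 library, and without it Ifit3 and Ifi204 passed the test. Irgm2 was at 51.3, 41.3 and 28.2 CPM on day 3, against 86.4, 125, 75.2 and 67.8 CPM under vehicle (-1.14 ± 0.31, adjusted p = 0.490), with no overlap. Without vehicle library 2 the list had 13 higher and 2 lower members, without vehicle library 1 it had 2 and 2, and without day 3 library 1, 2 or 3 it had 3 and 5, 4 and 1, and 7 and 1. The interferon element, spelled GAAA, then 2 bases of any kind, then GAAA, and searched on both strands, was in 2.98% of windows, in 3.46% of genes and in 20 of 38 matched genes of the list (52.6%). The windows of Irgm2 (chr11:58214727-58214976, plus strand) and Ifit3 (chr19:34583279-34583528, plus strand) are shown because these genes differed in opposite directions and both hold that element. Capitals in Irgm2 mark a STAT core that begins 75 bases before the start and an interferon element that begins 64 bases before it, which do not overlap. Capitals in Ifit3 mark interferon elements on the other strand that begin 156 and 122 bases before the start.
Irgm2: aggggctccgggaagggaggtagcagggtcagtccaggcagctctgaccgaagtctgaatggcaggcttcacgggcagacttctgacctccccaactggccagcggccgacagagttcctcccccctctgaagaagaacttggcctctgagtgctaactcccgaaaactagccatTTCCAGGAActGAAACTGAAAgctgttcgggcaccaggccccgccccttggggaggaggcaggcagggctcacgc
Ifit3: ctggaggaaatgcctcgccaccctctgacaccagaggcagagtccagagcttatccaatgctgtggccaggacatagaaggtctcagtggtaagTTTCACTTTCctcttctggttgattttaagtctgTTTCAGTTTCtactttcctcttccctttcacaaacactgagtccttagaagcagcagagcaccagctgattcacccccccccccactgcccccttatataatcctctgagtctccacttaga
Igtp, the close relative of Irgm2, also held both motifs, and it was at 56.8 to 144 CPM on day 3 and 118 to 233 CPM under vehicle.

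Genes of growth and division had medians near that of all genes. None of 35 mitosis genes, 41 DNA replication genes, 37 ribosomal protein genes, 32 oxidative phosphorylation genes or 18 survival genes reached an unadjusted p under 0.05 in either direction. The medians were -0.13 for mitosis and for replication and 0.00 for ribosomal proteins. The direction was not stable: without day 3 library 1 the median was -0.39 for mitosis and -0.35 for replication, and without day 3 library 3 it was 0.15 and 0.085 for the same lists. Day 3 library 3 had the lowest summed mitosis level, with 7999, 6552 and 3651 CPM on day 3, against 6223, 6891, 6805 and 6264 CPM under vehicle. The ribosomal protein median ran from -0.11 to 0.25 over libraries left out. A p that misses a threshold does not show equal levels. The proliferation gene Mki67 was at 295, 247 and 125 CPM on day 3, against 231, 210, 315 and 246 CPM under vehicle. Of 23 cholesterol synthesis genes 2 were lower, Cyp51 and Sqle, at -0.73 ± 0.27 and -0.52 ± 0.23. Of 24 amino acid and stress response genes 4 were lower, Pycr1, Mthfd2, Trib3 and Vldlr, at -1.10 to -0.76. Of 31 megakaryocyte genes 2 were higher and 1, Fli1, lower, with a median of -0.25, and Pf4 was at 172 to 243 CPM on day 3 and 130 to 334 CPM under vehicle. Of 25 heme and iron genes 4 were higher, Slc11a2, Ftl1, Slc40a1 and Hmox1, and 1 lower, Tfrc. Slc40a1 and Hmox1 are also on the macrophage list and, like Ftl1, were highest in day 3 library 3, and the part of macrophage RNA in this count was not tested. Without vehicle library 1, 2 or 4, 2 members were higher.

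The rule for naming genes also gave several that were in none of the lists above, all with groups that did not overlap and none of which passed. On the higher side were the complement gene C3, at 39.0, 41.3 and 45.1 CPM on day 3 and 14.0, 23.4, 8.46 and 10.8 CPM under vehicle (1.56 ± 0.34, adjusted p = 0.253), the cannabinoid receptor gene Cnr2 (1.13 ± 0.25), the G protein gene Gna14 (1.16 ± 0.30), the transcription factor gene Zeb2 (0.66 ± 0.24), and the lipid enzymes Lpin1 and Acsl1 (0.68 ± 0.24 and 0.72 ± 0.25). Lower were the mitochondrial ribosomal RNA mt-Rnr1, at 52.9, 42.6 and 33.3 CPM on day 3, against 136, 126, 96.3 and 83.0 CPM under vehicle (-1.36 ± 0.29, adjusted p = 0.253), and Plxdc2, at 21.8, 14.7 and 21.3 CPM on day 3, against 60.6, 69.6, 48.1 and 51.2 CPM under vehicle (-1.57 ± 0.33). The endocytic receptor gene Ly75 (-1.11 ± 0.25), the actin-binding genes Ablim1 and Lsp1 (-1.08 ± 0.25 and -1.41 ± 0.33), Susd3 (-1.17 ± 0.26), Tmem176a (-1.11 ± 0.30) and the endosomal channel gene Mcoln2 (-0.997 ± 0.26) completed the set.

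LSK cells answered differently from MEP cells, the committed progenitors of red cells and platelets, for 16 of 26678 genes (0.06%) in a test of the difference between the responses, 12 higher (0.045%) and 4 lower (0.015%) in LSK cells relative to MEP cells. Without LSK day 3 library 3, 7 were called. For 10 named protein-coding genes the difference came with a fall in MEP cells that LSK cells did not share in size. Cish was at 6.41 ± 1.957 CPM on day 3 (SD, n = 3) and 25.0 ± 8.08 CPM under vehicle (n = 4) in LSK cells, and at 0.705 ± 0.354 CPM on day 3 (n = 4) and 27.7 ± 13.5 CPM under vehicle (n = 3) in MEP cells. Its log2 fold change was -1.97 in LSK cells and -5.28 ± 0.46 in MEP cells, and the difference of 3.28 ± 0.58 had an adjusted p of 0.0166 in edgeR. Podxl differed by 3.67 ± 0.49 (adjusted p = 0.000454), with -1.36 in LSK cells and -5.05 ± 0.38 in MEP cells. Gab2, an adaptor of cytokine receptor signalling, had a log2 fold change of 0.05 ± 0.39 in LSK cells and of -4.52 ± 0.55 in MEP cells (difference 4.54 ± 0.72, adjusted p = 0.0059).

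The other genes of that pattern were Fabp5, a fatty acid binding protein, with -0.30 ± 0.25 in LSK cells and -3.54 ± 0.27 in MEP cells (difference 3.23 ± 0.36, adjusted p = 5.59e-05), Cda, cytidine deaminase, with -0.28 ± 0.37 in LSK cells and -3.94 ± 0.34 in MEP cells (difference 3.64 ± 0.46), Cpd, a carboxypeptidase, with -0.28 ± 0.26 in LSK cells and -2.70 ± 0.24 in MEP cells (difference 2.42 ± 0.33), and Plek2, a pleckstrin family gene, with -0.43 ± 0.31 in LSK cells and -3.07 ± 0.34 in MEP cells (difference 2.63 ± 0.46). B3gnt7, Fam124a and Pak6 differed by 4.27 ± 0.73, 3.45 ± 0.62 and 2.29 ± 0.44. Levels in the vehicle groups differed as well: on the common scale of batch A, Fabp5 had a mean of 420 CPM in MEP cells and 66.2 to 105 CPM in LSK libraries. Of the genes of that pattern, all but Cish and B3gnt7 had every MEP vehicle library above every LSK vehicle library on that scale. Cda, for example, was at 37.1 to 72.2 CPM in MEP vehicle libraries and 5.53 to 7.99 CPM in LSK ones. Osm missed the threshold, with a difference of 1.99 ± 0.40 (adjusted p = 0.0557), and Socs2 differed by 0.21 ± 0.42 (adjusted p = 1). Gzmb differed in the other way, with 2.60 in LSK cells and -0.35 ± 0.41 in MEP cells, where its mean was 1.01 CPM on day 3 and 1.30 CPM under vehicle (difference 2.93 ± 0.55, adjusted p = 0.0277). The pseudogene Gm6166 was also called. The lower calls, Ly6a, Gimap7, Iglv1 and Igkv1-117, had 0 to 4 counts in each MEP vehicle library, so their fitted differences depend on the prior count and are not read as sizes. LSK and MEP libraries that share a number in the labels were treated as independent.

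**Figure D4:**
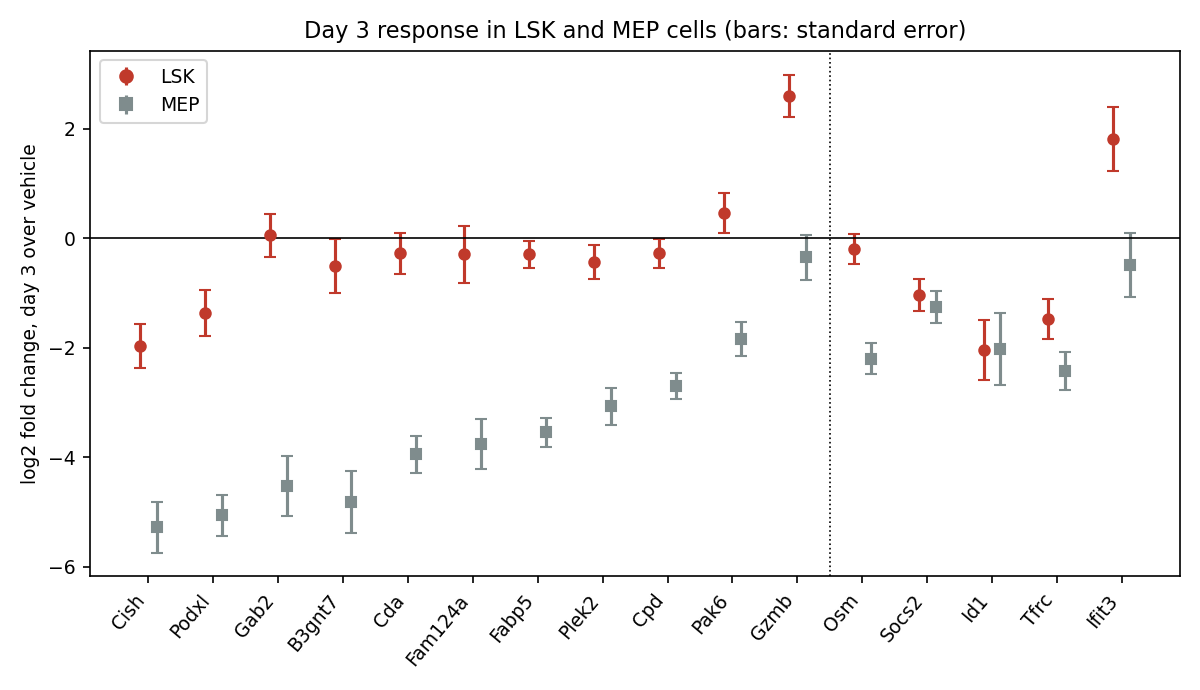
Log2 fold changes, day 3 over vehicle (vertical axis), with standard errors, for 16 genes in LSK cells (red circles, 3 against 4 libraries) and MEP cells (grey squares, 4 against 3). The difference between the cell types passed the test for the 11 genes left of the dotted line, and did not pass for the 5 genes right of it. LSK values come from the LSK fit and MEP values from the fit of batch A.

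Between day 3 and day 7, a mitochondrial ribosomal RNA rose and an interleukin 18 inhibitor fell. Day 7 minus day 3 called 2 of 25114 genes (0.00796%): mt-Rnr1 rose by 2.75 ± 0.30 (adjusted p = 0.00401) to 201, 395, 287 and 274 CPM on day 7, against 52.9, 42.6 and 33.3 CPM on day 3, and Il18bp, which encodes a soluble inhibitor of interleukin 18, fell by 2.80 on the log2 scale (SE 0.39, adjusted p = 0.0391) to 9.59, 8.64, 6.28 and 5.68 CPM on day 7, against 52.2, 27.8 and 77.4 CPM on day 3. At an unadjusted p under 0.05 in edgeR, 2322 of the 25114 genes differed, 687 higher and 1635 lower on day 7. Day 3 against vehicle had 1036 (4.13%) at that threshold. Without day 3 library 1 or 2, 1 gene was called. Without day 3 library 3 edgeR called 0, and 1516 had an unadjusted p under 0.05. Il18bp ranked the day 3 libraries as summed macrophage genes did, at 6692, 3993 and 24027 CPM. The part of macrophage RNA in its fall was not tested. In MEP cells mt-Rnr1 was also lower on day 3 than under vehicle, with means of 70.2 and 229 CPM (-1.71 ± 0.32, adjusted p = 0.00975 in edgeR). The day 7 and day 3 comparisons against vehicle share the vehicle libraries, so their values for the same genes are given only side by side. Fos was at 46.2 to 80.2 CPM on day 7 and 141 to 251 CPM on day 3 (-1.78 ± 0.36, adjusted p = 0.135), and Car1 at 229 to 600 CPM on day 7 and 1022 to 2408 CPM on day 3 (-2.14 ± 0.48, adjusted p = 0.138). S100a8 was at 25.5 to 72.8 CPM on day 7 and 5.62 to 10.4 CPM on day 3 (2.63 ± 0.45, adjusted p = 0.115). Hmox1 was at 27.3 to 83.3 CPM on day 7 in all 4 libraries and at 448 to 3288 CPM on day 3. Cish was at 5.11 to 13.6 CPM on day 7 and Serpina3g at 282 to 422 CPM, and Tfrc at 72.7 to 163 CPM, all overlapping their day 3 libraries.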

How the data were processed

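Sorted LSK and MEP cells were profiled by paired-end RNA sequencing. Reads were processed with STAR and featureCounts on mm10, per the submitters' processing notes, and the deposited table holds raw counts per gene symbol as the authors made them (33924 genes, 32 libraries). Of the tool versions, annotation, strand setting and treatment of multiply aligned reads, none is given in the sources used here, so overlapping, antisense and near-identical genes (immunoglobulin, globin, Serpina3, Gbp and H2 families) may hold each other's reads. Groups came from the labels. The test was edgeR 4.0.16 (R 4.3.3): quasi-likelihood F test, two-sided, TMM scaling, low counts removed by filterByExpr (minimum count 10), Benjamini-Hochberg adjustment over all genes tested, on the 11 LSK libraries of batch A (4 vehicle, 3 day 3, 4 day 7). The difference from MEP cells was fitted on the 21 libraries of batch A. Levels and changes of MEP cells come from that fit. Those of LSK cells come from the LSK fit unless said otherwise, so the scaling of the 2 cell types differs. DESeq2 1.42.0, limma 3.58.1 and the other alternatives are described with their effects after the report. Depth was about 12423200 to 28838600 counts per compared library, so counting error is small except for genes near 1 CPM. Members, lists (32, plus 1 of plasma cell genes) and tests were chosen with earlier results of these data known. The naming rule took Jak2, then up to 12 genes per direction (called ones whose logCPM averaged 2 or more, filled by smallest p among genes of at least 10 CPM whose groups did not overlap), a STAT5 panel, the sort genes and the called or up to 4 other members of each list described; genes named beyond it were chosen after their values were seen. Sums of lists were compared as ranges, with an exact permutation test's p given for the lymphoid list only. Positions are GENCODE M21 on mm10, which matched 87.4% of the symbols of tested genes, and promoter windows are RefSeq GRCm38.p6. Starts can differ between these annotations, and the Cish and Irgm2 windows lie inside the GENCODE spans of these genes. A member of the receptor list is not reported here. The code was tested on simulated counts.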

Additional observations from a re-analysis of the deposited data

Results flagged for a closer look

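Among the 94 named genes, 8 had a vehicle library that stood apart from the other 3 by Dixon's criterion; chance sets apart about 1 in 20 groups. In vehicle library 3, Cd5l (207 CPM), Slc40a1 (862 CPM), Hmox1 (1040 CPM), P2ry12 (3.36 CPM) and Ifi204 (20.3 CPM) were far above the other vehicle libraries, and Id1 (2.86 CPM) was far below them. In vehicle library 2, Clec1a (8.80 CPM, next 19.7 CPM) and Plek2 (8.71 CPM, next 12.2 CPM) were below the others. For Plek2 the distance was small, and the other vehicle libraries lay close together. The group of 3 day 3 libraries is too small for this criterion.

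For 16 genes the day 3 response of LSK cells differed from that of MEP cells in the test of the difference itself. The differences in log2 fold change, LSK minus MEP, were 4.27 for B3gnt7, 3.64 for Cda, 3.28 for Cish, 2.42 for Cpd, 3.23 for Fabp5, 3.45 for Fam124a, 4.54 for Gab2, 2.50 for Gm6166, 2.93 for Gzmb, 2.29 for Pak6, 2.63 for Plek2 and 3.67 for Podxl. They were -6.92 for Gimap7, -6.29 for Ly6a, -11.66 for Iglv1 and -15.43 for Igkv1-117, whose MEP vehicle libraries had 0 to 4 counts each.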

How the results depend on the processing

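The count of genes called on day 3 was 4. It was 5 with RLE factors, 5 with no filter, 87 with DESeq2, 12 with limma voom and quality weights, 2 with the 7 compared libraries alone, 0 with all 16 LSK libraries, 8 against the vehicle libraries whose label lacks an r suffix (its meaning is not given) and 106 against those that carry it. Alternatives chosen after seeing the data gave 38 with all 21 libraries of batch A and 3 without immunoglobulin genes. Leaving out 1 library gave 0 to 101: 0 without any 1 of the day 3 libraries, 14 without vehicle library 1, 4 and 5 without 2 and 4, and 101 (78 higher, 23 lower) without vehicle library 3. Among expressed genes the count was 0, with 78 in DESeq2, 3 at a mean CPM of at least 1, 4 and 12 against vehicle without and with the suffix, and 0 to 40 with 1 library left out (2 without vehicle 1, 40 without vehicle 3). The difference from MEP cells was called for 16 genes, 9 under limma voom with the label number as a random block and 7 to 14 with 1 day 3 library left out. Day 7 minus day 3 called 2, 4 with no filter, 1 among expressed genes and 0 to 1 with 1 day 3 library left out. The labels do not say whether equal replicate numbers pair the libraries. Deviations of same-numbered day 3 and vehicle libraries correlated at -0.07, 0.17 and 0.40. Those of different-numbered libraries correlated at -0.46 to 0.45, so these values do not decide the pairing. With the number as a replicate block the counts were 220 on day 3 (0 among expressed genes), 14 against MEP cells and 23 for day 7 minus day 3. Gzmb, P2ry10, Iglv1 and Gm16879 also lost their calls with all 16 LSK libraries, P2ry10 with the 7 libraries alone, Gzmb against either suffix group and Gm16879 under limma voom. Signs turned for genes near 0: Kit to -0.15 (RLE), -0.15 (DESeq2), -0.031 (16 libraries) and -0.42 (suffix), with -0.23 to 0.50 over libraries left out; Gab2 to -0.16, -0.16, -0.0040 and -0.58 likewise, with -0.23 to 0.68; Fam124a to 0.39 with the block, with -0.67 to 0.20; Myc to 0.31 (voom) and 0.53 (no suffix), with -0.53 to 0.33; Osm to 0.13 and 0.11, Pim1 to 0.014 and 0.0012 (voom, no suffix), Socs3 to 0.33 (voom) and B3gnt7 to 0.17 (no suffix). The cause was not tested. Depth limits genes near 1 CPM, such as P2ry10 on day 3.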

Other observations

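Lists not described above had few members on either side. Among 26 inflammatory genes 2 were higher and 0 lower at an unadjusted p under 0.05, with a median log2 fold change of 0.28, and the neutrophil chemokine gene Cxcl2 was at 1.76, 1.97 and 2.95 CPM on day 3, against 1.06, 0.274, 0.808 and 0.402 CPM under vehicle (1.81 ± 0.59, adjusted p = 0.756). Of 17 T and NK cell genes 1 was higher and 2 lower, and the kinase gene Lck was at 24.7, 26.0 and 18.1 CPM on day 3, against 47.7, 60.0, 31.5 and 38.2 CPM under vehicle (-0.95 ± 0.35, adjusted p = 0.973). Of 21 glycolysis genes 2 were lower, and Aldoc, an aldolase, was at 8.60, 14.3 and 10.1 CPM on day 3, against 16.3, 61.5, 16.8 and 24.8 CPM under vehicle (-1.44 ± 0.43, adjusted p = 0.621). Emp1, a membrane protein gene on the list of 16 ERK response genes, was at 2.64, 2.71 and 0.962 CPM on day 3, against 5.15, 31.0, 4.23 and 20.2 CPM under vehicle (-2.83 ± 0.73, adjusted p = 0.449). The lists of estrogen response, G1 regulator, heat shock, mitochondrially encoded, myeloproliferative disease, p53, ribosome biogenesis and stroma and endothelium genes had 0 or 1 member on each side, with medians from -0.21 to 0.04. None of these genes passed the test, and the genes named here were chosen after their values were seen.

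The X inactivation transcript Xist was at 3.26, 1.38 and 19.4 CPM in the day 3 libraries and 0.775 to 1.49 CPM under vehicle, while the Y-linked gene Ddx3y was at 63.5 to 134 CPM on day 3 and 60.8 to 147 CPM under vehicle. Another Y-linked gene, Eif2s3y, was at 2.02, 5.72 and 35.7 CPM on day 3, against 2.92, 37.0, 35.5 and 67.3 CPM under vehicle. Gdf15, a stress-induced cytokine on the p53 list, was at 2.80, 7.40 and 68.5 CPM on day 3, against 0.372, 1.05, 8.08 and 0.937 CPM under vehicle, with day 3 library 3 and vehicle library 3 highest.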
